A study of Mus musculus with 20 samples.

Results

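Cytosolic ribosomal protein genes encode the proteins of the large (Rpl) and small (Rps) subunit of the ribosome that works outside mitochondria. They were taken as the symbols of the deposited count table that start with Rpl or Rps followed by a number, with at most one more letter a, l or x, together with Rplp0, Rplp1, Rplp2 and Rpsa. This gave 81 genes of 20377 symbols, 49 of the large and 32 of the small subunit, each represented by the transcript with the largest total count. The name pattern also takes in Rpl3l, Rpl10l, Rpl39l and Rps27l, which are relatives of a core gene.

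The libraries came from male 129S4 mice that were 4 months old, either wild-type or without functional Fancd2 (Fancd2-/-), a gene of the Fanconi anaemia DNA repair pathway. From weaning the mice ate chow with oxymetholone, an anabolic androgen, at 300 mg/kg, or placebo chow, for 3 months. KSL cells (cKit+ Sca1+ Lin-, the marrow fraction that holds haematopoietic stem and progenitor cells) were sorted in 2 rounds and pooled from 5 mice per library, with 3 libraries for each of the 4 combinations of genotype and diet. Wild-type erythroblasts (Ter119+/CD71high/FSChigh), sorted in the same way, came from 1 mouse per library, with 3 libraries per diet, and there was 1 whole marrow library per genotype on placebo, each from 5 mice. Per the series' design text, each oxymetholone KSL library was compared with a placebo library of the same genotype taken under the same flow cytometer setting, which gave 3 pairs per genotype.

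All cells need ribosomes, and growing progenitors devote much of their transcription and translation to making them. Many ribosomal protein messages begin at a cytosine followed by a run of pyrimidines, the 5' terminal oligopyrimidine (TOP) tract, which couples their translation to mTOR signalling. Red cell precursors are known for their need of ribosomal proteins: loss of 1 copy of RPS19, RPL5, RPL11 or several others causes Diamond-Blackfan anaemia. The genome also holds many processed copies of these genes, so short reads often match more than 1 place.

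Counted reads ran from 10.8 M to 121 M in KSL libraries, from 17.2 M to 20.8 M in erythroblasts, and were 100.2 M and 107 M in whole marrow. Levels are CPM (counts per M counted reads) after TMM scaling over all 20 libraries. Fancd2 was at 4.69 to 6.16 CPM in Fancd2-/- KSL cells against 12.3 to 16.5 CPM in wild-type KSL cells, as its labels say. The populations carried their markers: 8 KSL genes such as Cd34, Kit and Meis1 summed to 2057 to 3318 CPM in KSL libraries and to 0.889 to 3.01 CPM in erythroblasts, where Meis1 was at 0 in every library. Erythroblast genes such as Slc4a1 and Alas2 (8 in the list) summed to 102910 to 122710 CPM in erythroblasts, 32223 and 33498 CPM in marrow and 37.8 to 197 CPM in KSL cells. Neutrophil genes (7 in the list) summed to 117480 and 125290 CPM in marrow, 280 to 502 CPM in erythroblasts and 355 to 1318 CPM in KSL cells, there mostly Mpo at 328 to 1290 CPM. The library Fancd2-/- KSL placebo 3 stood apart. Its score on the first principal component of the other genes was -66.4 against -3.88 to 23.3 in the other 11 KSL libraries, its level fell with transcript length by a log2 slope of -0.19 per unit of log2 length against -0.04 to 0.10, and 4 fibroblast genes summed to 59.9 CPM against 10.5 to 20.02.

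The start of the transcripts is shown for the genes whose change between erythroblasts and KSL cells had the smallest p in each direction, because the TOP tract lies there. Each sequence is 30 bases of mm9 on the gene's strand, from 10 bases before the deposited first base to 20 bases from it on. Capitals mark the first run in the window of a C followed by at least 4 more C or T; a later run is not marked. The first 6 genes were lower in erythroblasts, the last 4 higher.
Rpl39: ggtcccggCCTTTCTCTTCTCCattcctcc
Rpl27a: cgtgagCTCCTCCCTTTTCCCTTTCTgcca
Rpl15: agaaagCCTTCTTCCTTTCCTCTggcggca
Rpl32: ccgCCTCTTCCTTCTTCCTCggcgctgcct
Rps24: ggggtCCTTCCTTgcgcgttgatatgattg
Rps18: aggcctacacgccgccgtctgtgccgccgc
Rpl41: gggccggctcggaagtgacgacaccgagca
Rpl24: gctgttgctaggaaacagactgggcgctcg
Rpl36a: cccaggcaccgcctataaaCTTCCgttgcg
Rps29: gcggaccaatgttgtcgcacggcgtacgcg
The windows lie at chrX:34625160-34625189 (minus strand) for Rpl39, chr7:116662699-116662728 (plus) for Rpl27a, chr14:19103481-19103510 (minus) for Rpl15, chr6:115758742-115758771 (minus) for Rpl32 and chr14:25309893-25309922 (plus) for Rps24. Those of Rps18, Rpl41, Rpl24, Rpl36a and Rps29 lie at chr17:34092567-34092596 (minus), chr10:127986205-127986234 (minus), chr16:55966378-55966407 (plus), chrX:131120183-131120212 (plus) and chr12:70260154-70260183 (minus). Each window covers the promoter edge and the first bases of exon 1, as the deposited table places the start.

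Such a tract stood in the start window of 52 of the 81 ribosomal protein genes (64.2%) and of 7129 of 20325 symbols (35.1%), searched on the gene's strand only. A longer tract, a C followed by at least 6 pyrimidines, was in 36 of the 81 (44.4%) against 12.9% of all symbols. When the tract had to begin exactly at the deposited first base, 16 of the 81 had it (19.8%) against 2.08% of all symbols. The deposited start can miss the main start of a gene by a few bases. Rps6, a target of S6 kinase, carries a tract of 10 bases within its window at chr4:86503252-86503281 (minus strand).

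Ribosomal protein genes took a larger part of the reads in KSL cells than in marrow or erythroblasts. Their share of counted reads was 3.71% ± 0.51 (SD, n = 3) in wild-type KSL cells on placebo, 3.51% ± 0.34 on oxymetholone, 3.97% ± 0.44 in Fancd2-/- KSL cells on placebo and 3.65% ± 0.13 on oxymetholone. It was 1.32% in wild-type and 1.28% in Fancd2-/- whole marrow, and 0.659% ± 0.039 and 0.655% ± 0.023 (SD, n = 3 each) in erythroblasts on placebo and oxymetholone. All 12 KSL libraries (3.18% to 4.47%) lay above both marrow libraries, and these above all 6 erythroblast libraries (0.615% to 0.686%). TMM scaling, which aims to set the bulk of genes equal, left the same order with smaller gaps. Summed levels were 26541 ± 4356 CPM in wild-type KSL cells on placebo and 12043 ± 526 CPM in erythroblasts on placebo. They were 15843 and 15434 CPM in wild-type and Fancd2-/- marrow. The bulk was not fully equal: in the test of erythroblasts against KSL cells, with TMM over its own libraries, the median log2 change of all genes was -0.67. Among the 4 KSL groups the ranges of the share overlapped. The summed levels did too, except that the 3 Fancd2-/- libraries on oxymetholone (25978 to 26191 CPM) lay just below the 3 on placebo (26529 to 32301 CPM). In such bulk samples, fewer cells of a type and less RNA per cell cannot be told apart.

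**Figure D1:**
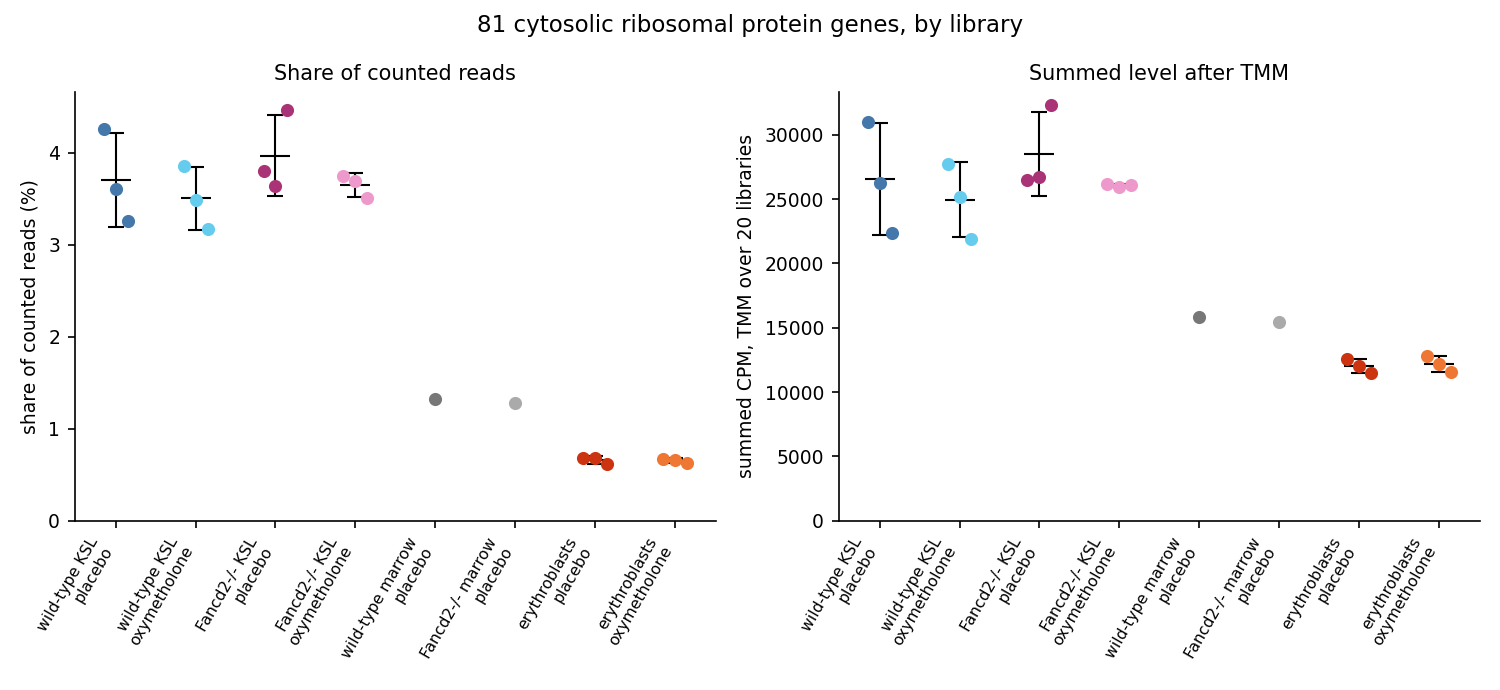
Share of counted reads (%, left) and summed level after TMM scaling (CPM, right) of the 81 ribosomal protein genes, 1 point per library, with the mean and SD of groups of 3. KSL libraries lie at 3.18% to 4.47%, marrow at 1.28% and 1.32%, and erythroblasts at 0.615% to 0.686%.

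The counted levels of single genes spread widely, although the ribosome holds its core proteins in equal numbers. Per kilobase of transcript, genes with a high mean over the 12 KSL libraries were Rpl32 (2631 CPM per kb), Rps14 (2579), Rpl8 (2272) and Rpl4 (2259). The lowest were Rpl3l (0.14 CPM per kb), Rpl39l (0.25) and Rpl10l (0.50), relatives known from striated muscle or testis, and then the core genes Rpl24 (0.56) and Rpl3 (0.65). The value of Rpl10l rested on Fancd2-/- placebo 3, where it was at 5.69 CPM against 0 to 0.205 CPM in the other 11 libraries, and without that library it was 0.0371 CPM per kb.

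Of the 80 genes matched to a transcript model, 31 had no 51-base coding window, the length of the reads, without a second exact match elsewhere in mm9. Their median level in KSL cells was 2.48 CPM and 21 of them were under 10 CPM. The other 49 genes had a median of 225 CPM, 11 under 10 CPM and 7 over 1000 CPM. The rank correlation of level per kilobase with the share of single coding windows was 0.57 over the 80 genes, given as a description. Rpl8 had 87.9% single windows, whereas Rpl24, Rps29, Rpl36a, Rps12 and Rpl12 had none. Rpl39 and Rpl15 had none either and were still at 255 and 142 CPM. Reads also fall on the noncoding ends of a transcript. Over all exon windows, coding or not, the share without a second exact match was 35.25% for Rpl39 and 63.7% for Rpl15. It was 24.7% for Rpl24 and 34.2% for Rps29. How reads with several matches were counted is not given in the sources used here. The low level of a gene with few or no single windows therefore cannot be read as low expression. The part of shared reads in the changes below was not tested. Rpl3l, Rpl39l and Rpl10l had 88.2% to 100% single coding windows and were the lowest all the same. The shares depended on the matching rule. With up to 2 mismatches allowed, single exon windows fell from 55.5% to 0% for Rpl32, from 82.7% to 25.4% for Rpl4 and from 74.25% to 15.04% for Rpl10l. Rpl8 kept 87.6%, Rpl39l 96.0% and Rpl3l 100%. The relation of level to single windows was not tested under that rule.

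**Figure D2:**
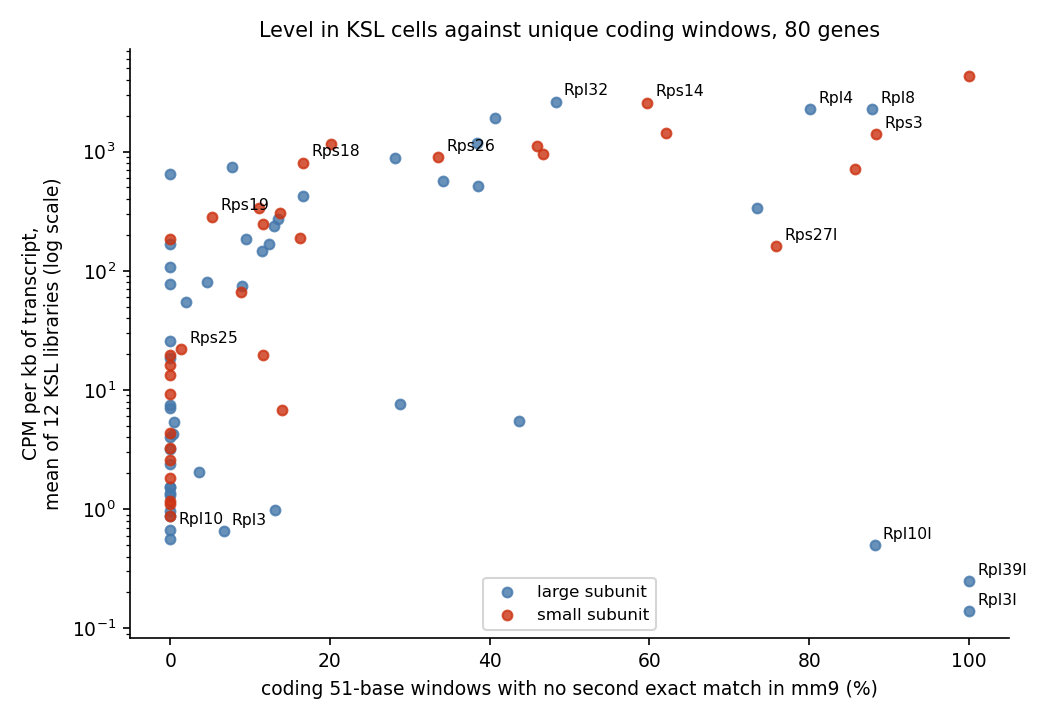
Mean level over 12 KSL libraries (CPM per kb of transcript, log axis) against the share of coding 51-base windows with no second exact match in mm9 (%), 1 point per gene for 80 genes. The 31 genes at 0% have a median of 2.48 CPM, the other 49 one of 225 CPM, and Rpl3l, Rpl39l and Rpl10l lie low at the far right.

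Erythroblasts were compared with KSL cells in wild-type mice on placebo, 3 libraries each. Of the 81 genes, 72 passed the low-count filter, and among the others were Rpl11, Rpl27, Rpl28, Rps27, Rps28, Rpl3l, Rpl10l and Rpl39l. At an edgeR adjusted p under 0.05, 53 were lower in erythroblasts (73.6% of those tested) and 4 higher (5.56%). Over all 12538 genes tested, 53.7% were called lower and 37.2% higher, 91% in all. Some ribosomal protein genes, such as Rpl12, Rpl19 and Rpl10a, passed the filter through KSL cells only. This bore on the direction in which they could be called, and the counts were not repeated without such genes. The median log2 change was -1.27 for the ribosomal protein genes and -0.67 for all genes. The median was -1.39 over 43 large subunit genes and -1.248 over 29 small subunit genes. The split depended on a correction for transcript length: with each library's trend of level on length taken out, 29 were lower and 26 higher, and the median was -0.18 against 0.31 for all genes. With scaling to the total count instead, 69 were lower and none higher. Measured against the median of all genes, the ribosomal protein median lay lower by -0.60 with TMM, -0.61 with the total count, -0.49 with the length trend removed and -0.29 without the low-count filter.

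Rpl27a, Rpl15 and Rpl32, proteins of the large subunit, were among those with the smallest p. Rpl32 was at 1556, 1252 and 1099 CPM in the 3 KSL libraries and at 204, 192 and 192 CPM in the 3 erythroblast libraries, a log2 change of -2.67 ± 0.13 (SE, edgeR adjusted p = 2.8e-11). Rpl15 was at 116, 123 and 146 CPM against 18.7, 22.8 and 19.4 CPM (-2.59 ± 0.13, edgeR adjusted p = 2.36e-11). Rpl27a was at 132, 108 and 115 CPM against 17.4, 13.96 and 16.02 CPM (-2.85 ± 0.13, edgeR adjusted p = 8.83e-12). In none of the 3 did a library of one population reach the range of the other, and each remained called with the length trend removed, at -1.70, -1.34 and -1.61. Rpl39, which lines the exit tunnel of the nascent chain, fell by 2.45 on the log2 scale, Rps18 by 2.53 and Rps24 by 2.30. Rps12 had the most negative estimate (-3.83 ± 0.71), from 8.15, 7.38 and 2.23 CPM in KSL cells to 0.324, 0.800 and 0.0937 CPM. It has no single coding window and passed the low-count filter through KSL cells only. Its level also split between KSL libraries in a pattern described below.

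Genes of Diamond-Blackfan anaemia differed in their changes. Rps19, the gene most often mutated in that disease, was at 244, 190 and 125 CPM in KSL cells and at 37.2, 30.3 and 29.6 CPM in erythroblasts (log2 change -2.47 ± 0.25, edgeR adjusted p = 1.29e-05). Rps24 was called lower too, and so was Rpl5 (-0.91 ± 0.14), a carrier of 5S rRNA that also binds Mdm2. Rpl35a, at 41.6, 36.2 and 35.5 CPM in KSL cells against 43.0, 42.7 and 34.1 CPM in erythroblasts, was not called (0.14 ± 0.13, edgeR adjusted p = 0.319), nor was Rps26 (-0.26 ± 0.16). Their ranges overlapped between the populations. Rpl11 stayed under 1 CPM in every library and was not tested here.

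Of the acidic proteins that form the stalk where elongation factors bind, Rplp0 was at 795, 656 and 555 CPM in KSL cells and at 712, 656 and 648 CPM in erythroblasts. Its log2 change was 0.07 ± 0.13, the value for Rplp1 was -0.29 ± 0.14, and neither was called, while Rplp2 fell by 0.68. Rpl8, one of the highest genes in both populations, was at 2265, 1948 and 1611 CPM against 1802, 1727 and 1684 CPM and was not called (-0.10 ± 0.13). Rpsa, also described as a laminin receptor precursor, fell by 3.12 on the log2 scale. Rpl22 fell by 1.501, and its duplicate outside the name pattern, Rpl22l1, by 1.24 (edgeR adjusted p = 1.25e-07). Rpl38, known for its part in Hox mRNA translation, fell by 2.59, and Rps27a, made as a fusion with ubiquitin, was not called (0.39 ± 0.25). Rps27l was at 63.6, 73.4 and 65.1 CPM against 56.2, 65.1 and 61.5 CPM and was not called (-0.09 ± 0.11).

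The 4 genes called higher in erythroblasts were Rpl41, Rpl24, Rpl36a and Rps29. Rpl41, which encodes the smallest ribosomal protein, was at 126, 104 and 87.5 CPM in KSL cells and at 175, 184 and 165 CPM in erythroblasts, with no overlap (0.78 ± 0.13, edgeR adjusted p = 3.75e-05). The other 3 were near 1 CPM: Rpl24, at the bridge between the subunits, was at 0.246, 0.348 and 0.191 CPM against 1.19, 1.24 and 1.499 CPM (2.20 ± 0.39). It passed the low-count filter of this comparison through erythroblasts only. Rps12, Rpl38, Rpl12, Rpl19, Rpl10a, Rpl9 and Rpl29, among others, passed it through KSL cells only. The filter thus set the direction in which these genes could be called. Rpl36a (1.22 ± 0.37) and Rps29 (1.17 ± 0.41) have no single coding window, as Rpl24. With scaling to the total count, Rpl41 was lower (-0.63), Rpl36a and Rps29 were not called (-0.18 and -0.22), and Rpl24 was not called (0.82, edgeR adjusted p = 0.0586). Against the median of all genes, Rpl41 lay 1.45 higher under both scalings, and Rpl24 2.87 and 2.90 higher. Over the KSL and erythroblast libraries of both diets and genotypes, 73 of the ribosomal protein genes reached 1 CPM in at least 2 libraries. Of these, 51 (69.9%) were lower in each of the 6 erythroblast libraries than in any of the 12 KSL libraries, and 1, Rpl24, was higher (1.37%). Over all 12410 such genes 49.8% were lower and 33.9% higher without overlap. Rpl24 reached 1 CPM in erythroblasts only (at most 0.674 CPM in KSL cells), so this filter left it no way to be lower. Genes such as Rpl12 and Rpl38 reached 1 CPM in KSL cells and marrow only, so they could not be higher.

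**Figure D3:**
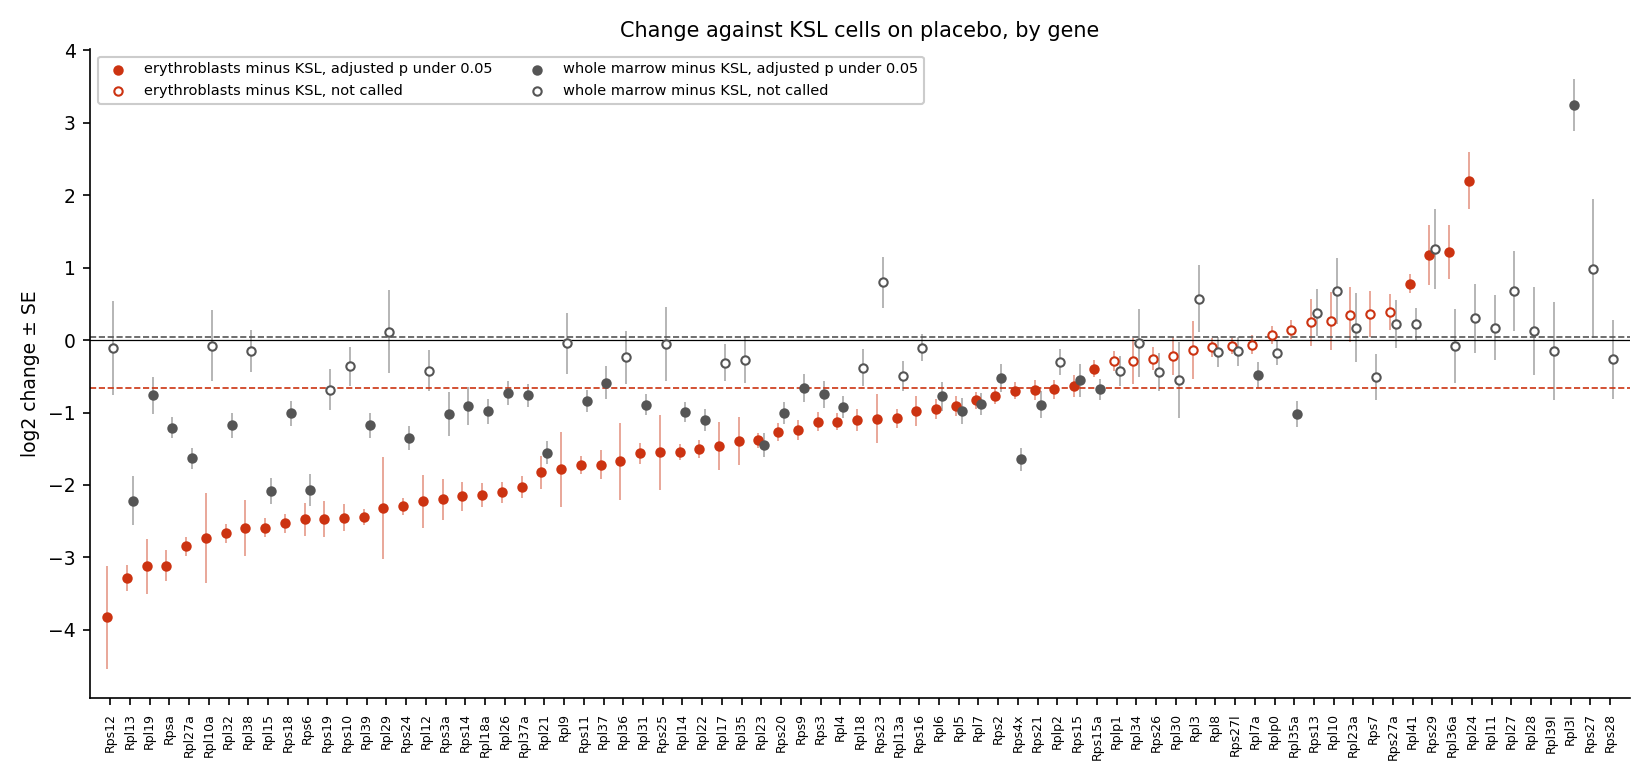
Log2 change ± SE against KSL cells on placebo, for erythroblasts (red, wild-type) and whole marrow (grey, both genotypes), 1 column per gene in order of the erythroblast change; filled points have an edgeR adjusted p under 0.05, and dashed lines are the medians of all genes (-0.67 and 0.04). Rpl10l (-6.59 ± 3.81 in marrow, not called) and genes not reported here are not drawn; most red points lie below their dashed line, with Rpl41, Rpl24, Rpl36a and Rps29 at the right end above 0.

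The tract at the start did not separate the changes: the median log2 change in erythroblasts was -1.26 over 44 tested genes with it and -1.33 over 28 without. Transcript length, GC content and the share of single windows had rank correlations of -0.08, -0.09 and 0.19 with the erythroblast change over 71 genes, given as a description. Other genes of the translation machinery, from lists written from general knowledge, were mixed. Of 49 ribosome biogenesis genes 37 were lower and 7 higher (median -1.90). Among them were Nop16 (-4.38), a nucleolar protein, Wdr12 (-3.70), of the PeBoW complex, and Ubtf (2.27), the activator of rRNA transcription. Of 22 translation factors and other genes with TOP messages 11 were lower and 6 higher (median -0.36), with Vim at -6.63, Pabpc4 at 4.23 and Tpt1 at 3.34. Of 75 mitochondrial ribosomal protein genes tested, 45 were lower and 14 higher (median -0.45), from Mrps6 at -4.37 to Mrps36 at 4.81.

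Whole marrow was set against KSL cells on placebo with both genotypes, 2 against 6 libraries. With 1 marrow library per genotype, the p-values assume that marrow libraries vary like KSL libraries. All 81 genes were tested. The count called lower was 38 (46.9%) and the count called higher 1 (1.23%), where all 14401 genes tested gave 31.2% lower, 35.9% higher and 67.2% called in all. The median log2 change was -0.51 against 0.04 for all genes. Marrow carries neutrophil and erythroid messages at the levels given above, and 4 B cell genes summed to 733 and 753 CPM there. The part of these messages in the change was not tested. The count of called genes was 27 without the Fancd2-/- marrow library and 47 without Fancd2-/- KSL placebo 3. Among the 32 genes under 10 CPM in KSL cells 2 were called lower and 1 higher, and among the 49 others 36 were lower.

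Rpl15 was at 31.0 and 32.3 CPM in wild-type and Fancd2-/- marrow, while the 6 placebo KSL libraries ran from 116 to 182 CPM (log2 change -2.08 ± 0.18, edgeR adjusted p = 4.42e-06). Rpl27a fell by 1.63, Rps4x, the X-linked S4 gene, by 1.65, Rpl21 by 1.55, and Rps6 by 2.07. In erythroblasts the change of Rps4x was -0.70, and the difference between these changes was not tested. Rpl3l, the muscle relative of Rpl3, was the gene called higher, at 2.07 and 2.43 CPM (173 and 216 counts) in wild-type and Fancd2-/- marrow against 0.0481 to 0.361 CPM in the 12 KSL libraries and 0 to 0.352 CPM in erythroblasts. Its log2 change was 3.25 ± 0.36 (edgeR adjusted p = 2.59e-05). Rps19 (-0.69, edgeR adjusted p = 0.0524), Rplp0 (-0.17), Rplp1 (-0.43) and Rplp2 (-0.31) were not called. Rpl35a, not called in erythroblasts, was called lower in marrow (-1.02 ± 0.18), with 19.2 and 21.2 CPM. Of 70 ribosomal protein genes with 1 CPM in at least 2 of these libraries, the 2 marrow libraries exceeded all 6 erythroblast libraries for 46 (65.7%) and lay below them for 10 (14.3%), against 52.9% and 38.3% of all 12044 such genes. Some passed this filter through a single population, such as Rpl12 and Rpl38 through marrow and Rpl24 through erythroblasts, which set their direction.

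Of the other lists in marrow, 33 of 49 ribosome biogenesis genes were lower and 2 higher (median -0.59). Myc was at -1.63, Tsr1 at -1.17 and Bysl, an assembly factor of the small subunit, at 2.70. Of the 22 genes with TOP messages 11 were lower and 4 higher (median -0.32). Of 76 mitochondrial ribosomal protein genes 16 were lower and 9 higher (median -0.17). Rpl22l1 fell by 1.33.

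Genotype was compared in marrow with 1 library each, so there is no replicate check. Of the 81 genes, 67 had at least 100 counts in a library. The ratio of Fancd2-/- to wild-type CPM had a median of 0.996 over these and of 1.001 over all 11819 such genes. It was lower by more than 20% or higher by more than 25% for 3 genes, all lower, against 5.93% of all genes (3.56% higher and 2.37% lower): Rpl27 at 0.695 (exact 95% interval for counting error 0.539 to 0.895), Rps23 at 0.764 and Rpl35 at 0.786 (0.631 to 0.98). These 3 were at 1.247 to 3.457 CPM.

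In KSL cells on placebo, the absence of Fancd2 went with slightly higher estimates for most ribosomal protein genes and with no call. All but Rpl10l of the 81 passed the filter. The estimate was above 0 for 67 of 80, with a median of 0.18 against -0.01 for all genes. edgeR called none of the 80, while 1.28% of all 13259 genes were called (0.505% higher and 0.777% lower). Rps27l, Rpl41, Rps27a, Rpl39 and Rpl24 had an unadjusted p under 0.05, limma called none and DESeq2 called Rps27l. The median rested on Fancd2-/- placebo 3: without that library it was 0.01, and with the length trend removed it was 0.00. Without wild-type placebo 1 it was 0.31 and without Fancd2-/- placebo 2 it was 0.27. The share of that library's reads in ribosomal protein genes, 4.47%, was the highest of the 12. Of 76 mitochondrial ribosomal protein genes 74 had an estimate above 0 too (median 0.35), with none called.

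Rps27l, a relative of Rps27 known as a p53 target, ranked first. It was at 108, 86.6 and 130 CPM in Fancd2-/- and at 63.6, 73.4 and 65.1 CPM in wild-type KSL cells on placebo, with no overlap (log2 change 0.72 ± 0.17, edgeR adjusted p = 0.0548). Over the alternatives its adjusted p ran from 0.00327 (DESeq2) to 0.178, and edgeR called it without the low-count filter (0.0418), without Fancd2-/- oxymetholone 3 (0.0371) and without Fancd2-/- placebo 2 (0.0482). Its log2 change was 0.45 with the length trend removed (edgeR adjusted p = 0.108) and 0.55 without Fancd2-/- placebo 3 (edgeR adjusted p = 0.133). On oxymetholone it was at 102, 102 and 86.0 CPM in Fancd2-/- and at 91.8, 72.8 and 63.8 CPM in wild-type cells, which overlap (0.35 ± 0.17, edgeR adjusted p = 0.917). In whole marrow it was at 75.3 CPM in Fancd2-/- and 69.9 CPM in wild-type. It had 75.8% single coding windows and 1022 to 13022 counts per KSL library. Rpl41 came second, at 129, 125 and 184 CPM against 126, 104 and 87.5 CPM (0.51 ± 0.18, edgeR adjusted p = 0.146), and the groups overlapped. Of 69 ribosomal protein genes with 1 CPM in at least 2 of the 6 libraries, 6 (8.7%) had all 3 Fancd2-/- libraries above all 3 wild-type libraries and 0 the reverse, against 9.82% and 15.8% of all 11867 such genes. The share above was thus near that of all genes.

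On oxymetholone, edgeR called none of the 80 genes between genotypes, none had an unadjusted p under 0.05, and neither DESeq2 nor limma called any, with 0.128% of all genes called (0.0302% higher and 0.098% lower). The median was 0.07, with 65 estimates above 0. It was 0.16 without wild-type oxymetholone 1, -0.01 without wild-type oxymetholone 3 and 0.00 with the length trend removed.

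Oxymetholone changed no ribosomal protein gene past the threshold in KSL cells. In Fancd2-/- cells edgeR, DESeq2 and limma called none of 80, as of all 13259 genes (0%, with 903 genes at an unadjusted p under 0.05). Rpl35a (-0.37 ± 0.13), Rpl27a (-0.31 ± 0.12), Rps4x (-0.29 ± 0.12) and Rpl34 (-0.52 ± 0.24) had an unadjusted p under 0.05, and the smallest edgeR adjusted p was 0.688. The median was -0.14, with 68 estimates below 0. Pair by pair, the medians were -0.05, 0.05 and -0.42, with 33, 52 and 4 of 80 genes above 0, so the negative median came from the pair with Fancd2-/- placebo 3. Without that pair the median was 0.00, and it was -0.24 without pair 2.

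In wild-type KSL cells edgeR, DESeq2 and limma called none of 80 (0% of all genes, 356 of them at an unadjusted p under 0.05), none of the 80 had an unadjusted p under 0.05, and the median was -0.04. The medians of the 3 pairs were -0.07, -0.03 and 0.00, and without pair 1 or pair 2 the median was 0.00. The test of whether the oxymetholone effect differed between genotypes called none of 80 with edgeR, DESeq2 or limma (0% of all genes, 457 of them at an unadjusted p under 0.05), with 0 of the 80 at an unadjusted p under 0.05 and a median of -0.09. That median was 0.02 without Fancd2-/- pair 3, and also with the length trend removed, and -0.16 and -0.17 without Fancd2-/- pairs 1 and 2. Rps19 was at 172, 143 and 194 CPM on oxymetholone against 151, 161 and 262 CPM on placebo in Fancd2-/- cells, and at 175, 196 and 130 CPM against 244, 190 and 125 CPM in wild-type cells. No direction held over the pairs of either genotype. In both genotypes together, 3 of the 80 genes (3.75%) were lower on oxymetholone in all 6 pairs, against 2.38% of all genes. In Fancd2-/- pairs 14 were lower in all 3 and 2 higher (17.5% and 2.5%, against 11.6% and 9.39% of all genes). In wild-type pairs 17 were lower and 9 higher (21.2% and 11.2%, against 15.4% and 14% of all genes).

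**Figure D4:**
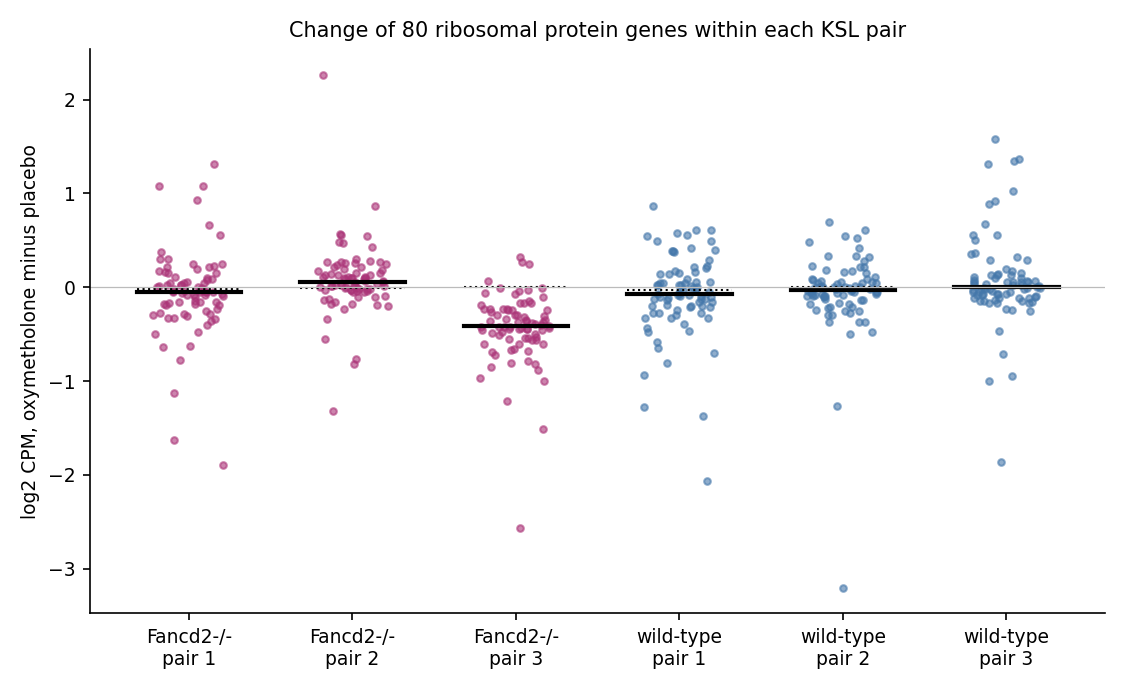
Log2 CPM on oxymetholone minus placebo within each of the 6 KSL pairs, 1 point per gene for 80 ribosomal protein genes; thick lines are their medians and dotted lines the medians of all genes. Fancd2-/- pair 3 lies at a median of -0.42 with 4 genes above 0, while the other 5 medians lie between -0.07 and 0.05.

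In wild-type erythroblasts 60 of the 81 genes passed the filter. edgeR, DESeq2 and limma called none of them for oxymetholone (0% of all 9694 genes, 123 of them at an unadjusted p under 0.05), and 1, Rpl36a (-0.94 ± 0.41), had an unadjusted p under 0.05. The median was -0.01, and ran from -0.06 to 0.02 with 1 library left out. Rps19 was at 35.8, 30.9 and 27.998 CPM on oxymetholone and at 37.2, 30.3 and 29.6 CPM on placebo, and Rplp0 at 716, 664 and 629 CPM against 712, 656 and 648 CPM. Both ranges overlapped almost in full. The difference of the oxymetholone effect between erythroblasts and KSL cells was tested for 77 genes and edgeR, DESeq2 and limma called none, against 0.0155% of all genes, with Rpl36a again the one gene at an unadjusted p under 0.05.

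Among the 12 KSL libraries the ribosomal protein genes varied along a line that followed neither genotype nor diet. Used here were the 50 genes with a geometric mean over 10 CPM, with TMM scaling over the KSL libraries alone. After each library's median over these genes was taken out, their first principal component held 78.4% of their variance. It held 77.3% without Fancd2-/- placebo 3. The score was 2.13 in Fancd2-/- placebo 3, 1.67 in Fancd2-/- oxymetholone 3, 1.81 and 1.24 in wild-type placebo 1 and 2, and 1.62 in wild-type oxymetholone 2. The other 7 libraries ran from -1.66 to -0.47, so there was a gap between them and these 5. The pattern was seen in the data and not looked for in advance.

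Rps25, needed by several viral internal ribosome entry sites, weighed most (loading 0.45). It was at 26.0, 20.3 and 6.82 CPM in wild-type placebo libraries 1, 2 and 3, at 10.6, 19.97 and 7.75 CPM on oxymetholone, at 11.4, 10.1 and 27.5 CPM in Fancd2-/- placebo and at 10.02, 10.1 and 19.6 CPM in Fancd2-/- oxymetholone libraries. Rps7 (0.29), Rps10 (0.24) and Rps19 (0.22) weighed the same way. Rpl13 weighed most in the other direction (-0.29) and was at 101, 93.2 and 154 CPM, 152, 70.4 and 128 CPM, 188, 172 and 81.4 CPM and 155, 198 and 72.7 CPM in the same order of groups. Rps6 (-0.15) and Rpl5 (-0.12) went with Rpl13. Rps12, under 10 CPM and not on the component, was at 7.38 to 8.98 CPM in the same 5 libraries and at 1.91 to 3.10 CPM in the other 7.

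**Figure D5:**
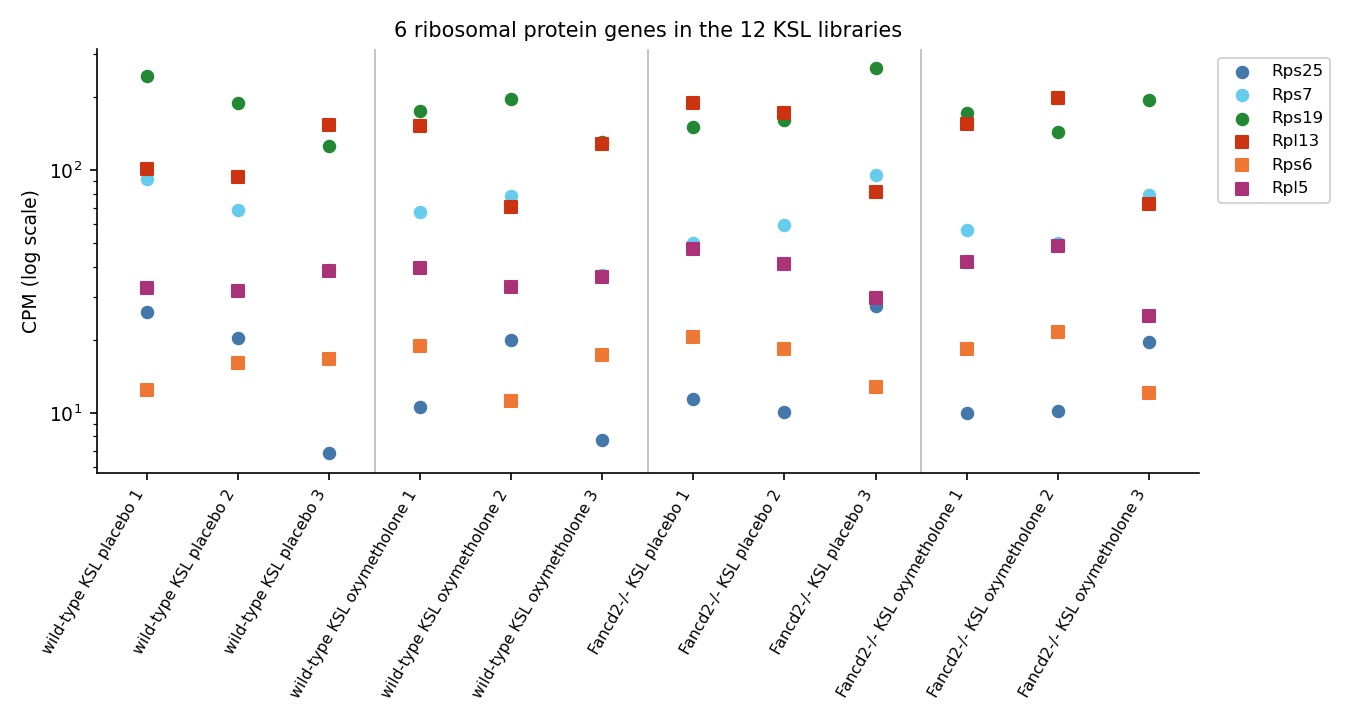
Level (CPM, log axis) of 3 genes that weigh positively (circles, Rps25, Rps7, Rps19) and 3 that weigh negatively (squares, Rpl13, Rps6, Rpl5) in each of the 12 KSL libraries. Rps25 lies at 19.6 to 27.5 CPM in 5 libraries of all 4 groups and at 6.82 to 11.4 CPM in the other 7, and Rpl13 is low where Rps25 is high.

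Other measures moved with this line. The 5 libraries had 32.1 M to 121 M counted reads and the other 7 10.8 M to 32.5 M, and on the second principal component of all other genes the 5 scored -24.9 to -10.1 and the other 7 -9.63 to 31.2. In the labels the 5 are titled HSC_22, HSC_23, HSC_24, QZ_35 and QZ_36, and the other 7 COM15, COM16, COM17, HSC_3, HSC_10b, HSC_13 and HSC_18, with no word on what the titles stand for. Over 49 genes the loading had a rank correlation of 0.54 with the GC content of the transcript and of -0.31 with its length. Their part in the pattern was not tested. Of the 6 pairs, wild-type pair 1 alone joined libraries from both sides of the gap. There Rps25 was lower on oxymetholone by a log2 value of -1.27 and Rps12 by -1.37, against -0.56 to 0.19 and -0.17 to 0.48 in the other 5. Over all wild-type pairs Rps25 and Rps12 were among the 3 genes with the smallest p for lower on oxymetholone, and without pair 1 their estimates were 0.08 and 0.02.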

How the data were processed

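Libraries were made from oligo(dT)-selected RNA with TruSeq and sequenced as 51-base reads, per the labels' protocols. The authors aligned reads with Bowtie to mm9 and used edgeR, per the series' design text and the submitters' processing notes. Not given in the sources used here are tool versions, whether counting used strand, and how multiply matching reads were counted. The deposited table holds counts for 26005 transcripts in 20 libraries. The 81 genes have 92 transcripts, and 8 of them more than 1. The deposited scaled matrix holds a score, by its values the counts scaled by the authors to about 20 M per library and rounded, which was used in 1 alternative (limma after adding 1 and taking log2). The column of Fancd2-/- KSL placebo 1 was assigned by the closest title.

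Genes were tested with edgeR 4.0.16 in R 4.3.3 (quasi-likelihood, robust, TMM, filterByExpr) and Benjamini-Hochberg adjustment over all genes tested, called at an adjusted p under 0.05. An adjusted p with no tool named is edgeR's. Oxymetholone and its interaction with genotype in KSL cells were fitted over the 12 libraries with a block for the pair, and genotype with group means over the 12. Pairing comes from the design text, and the deviations of paired libraries correlated at 0.13, -0.06, 0.21, 0.11, 0.26 and 0.13. Erythroblasts against KSL cells used 6 libraries, oxymetholone in erythroblasts 6, its difference between populations 12, and marrow against KSL cells 8 with genotype as a term. KSL p-values measure the spread between pools of mice. Those of marrow against KSL cells rest mostly on the spread of the KSL libraries. Marrow genotypes were compared by ratios with exact 95% intervals, which cover counting error only. Transcript lengths and coding windows came from GENCODE vM1 and mm9. The 51-base windows lay within 1 exon and were matched over the genome on both strands. Fits were also run on simulated counts with a fixed spread, no pair effect and changes only in genes with many counts. These runs do not cover genes with few counts or the differences among KSL libraries.

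The alternatives were median-of-ratios size factors, total-count scaling, no low-count filter, DESeq2 1.42.0, the sum of all transcripts of a symbol, limma 3.58.1 on the scaled matrix, the length trend removed, no block, all 12 wild-type libraries, and each library or pair left out.

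The genes and lists were chosen with earlier results of these data known. Named were the Diamond-Blackfan anaemia, stalk and relative genes, Rpsa, Rps27a, Rpl22 and Rpl38, the 6 called genes with the smallest p per direction or, under 5 calls, the 3 ranked first, and the 5 highest and 5 lowest per kilobase. Other names, such as Rps7 and Rpl13, were chosen after their values were seen. A few of the genes selected in this way are not reported here.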

Additional observations from a re-analysis of the deposited data

Results flagged for a closer look

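Rpl12 and Rpl41 were lower on oxymetholone in all 3 Fancd2-/- pairs and higher in all 3 wild-type pairs, 2 of the 80 genes with a value in every pair (2.5%, against 2.59% of all genes with such opposite signs either way round). The log2 changes of Rpl12 were -0.10, -0.19 and -0.82 in Fancd2-/- pairs and 0.16, 0.17 and 0.29 in wild-type pairs, and its interaction was -0.60 ± 0.34 (edgeR adjusted p = 0.953). Those of Rpl41 were -0.09, -0.01 and -0.68 against 0.05, 0.04 and 0.10, with an interaction of -0.32 ± 0.19 (edgeR adjusted p = 0.953). The tested difference therefore passed in neither, and in both genes the most negative pair was the one that holds Fancd2-/- placebo 3. Rpl12 was at 1.97 to 3.69 CPM in KSL cells and has no coding window that is single in the genome.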

How the results depend on the processing

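The count of called genes kept its side of the threshold, within 1.5 times, in 64 of 67 alternative fits and in 72 of 74 fits that left out a library or pair. In most comparisons the main count was 0, and this measure took no account of direction. For erythroblasts against KSL cells it passed the fit with the length trend removed, although the split into lower and higher moved there, as given above. Without the low-count filter, 1 gene was called for oxymetholone in Fancd2-/- KSL cells (Rpl10l, which had 253 counts in Fancd2-/- placebo 3 and 0 to 10 in the other KSL libraries) and 1 for genotype on placebo (Rps27l, 0.73). DESeq2 also called 1 for genotype on placebo (Rps27l, 0.75). With 1 library left out the genotype count on placebo ran from 0 to 1, that of erythroblasts against KSL cells from 56 to 64, and that of marrow against KSL cells from 27 to 47. In a window of 50 bases to either side of the start, 98.8% of the 81 genes held the tract, against 77.5% of all symbols.

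Directions reversed for Rps12 (0.024) and Rps25 (0.079) on oxymetholone without wild-type pair 1, for Rpl10a (0.05) between genotypes on placebo without wild-type placebo 2, and for Rps27 (0.44, difference of the oxymetholone effect) without erythroblast placebo 2. None of these 4 was called, and with 1 library left out in turn Rpl10a ran from -0.983 to 0.05 and Rps27 from -5.388 to 0.44. In erythroblasts against KSL cells, directions reversed with total-count scaling for Rpl41 (-0.63), Rpl36a (-0.18) and Rps29 (-0.22), and with limma on the scaled matrix for Rpl41 (-0.58) and Rpl36a (-0.019). Both settings scale to the total count, which moved the median of all genes to -2.08 and -2.02. Rpl36a was not called over all 12 wild-type libraries (0.63, edgeR adjusted p = 0.0615), and Rps29 not with limma (0.28).

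Without the replicate block of the KSL pairs no ribosomal protein gene was called in the 3 comparisons that used it, and the medians were -0.16, -0.04 and -0.10, so the block changed no call. With 3 libraries a group, and many genes under 10 CPM that share reads with copies, small changes could not be resolved.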
